A study of Oryza sativa Indica Group with 6 samples.

Results

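The homeobox genes of the HOX, ROC and HOS series were examined in rice seedlings that overexpress *Abp57* and in wild-type control seedlings. A gene was taken as a member when its symbol or a synonym in the NCBI rice gene table was HOX, ROC or HOS followed by a number. This gave 42 genes, of which 31 were paired with a transcript cluster of their own on the array, out of 14662 genes with such a cluster. The rule used names only and no signal, though it was set with earlier results of these data known. The 31 genes had 1 cluster each, and the other 11 (HOX8, HOX11, HOX12, HOX15, HOX19, HOX21, HOX29, ROC6, ROC8, ROC9 and HOS58) were not analysed here for want of a paired cluster.

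Total RNA of whole seedlings, 10 days old and grown on MS medium (a diluted form by the sample records), was hybridised to Affymetrix Rice (Cn) Gene 1.0 ST arrays, which carry probes along each transcript. The first group was T3 rice of cultivar MR219 overexpressing *Abp57* (OxAbp57), the gene of an auxin-binding protein, obtained through *Agrobacterium*, and the second was untransformed MR219 (control). Each group had 3 biological replicates, and each replicate pooled at least 3 seedlings. The promoter of the transgene and the number of independent lines behind the replicates are not given in the sources used here, and the wild type had not been through transformation, so an effect of *Abp57* and of transformation cannot be told apart.

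Homeobox genes encode transcription factors that bind DNA through a homeodomain. In the HD-ZIP families a leucine zipper follows the homeodomain and pairs the proteins. Class I HD-ZIP genes are known for responses to water deficit and abscisic acid (ABA), class II for auxin, light and vascular development, often as repressors, and class III for the upper side of leaves, the shoot meristem and vascular tissue. Class IV, to which the ROC genes belong, acts in the epidermis. The HOS genes are KNOX genes: class I KNOX genes keep cells of the shoot meristem undifferentiated, and class II genes are used in maturing organs. By class, 9 of 12 HD-ZIP I, 6 of 9 HD-ZIP II, 4 of 5 HD-ZIP III, 6 of 9 HD-ZIP IV and 6 of 7 KNOX genes were measured.

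All values below are log2 signals made by the authors with RMA, in which 1 unit is a fold of 2, and all differences are OxAbp57 minus control on that scale. A cluster's signal depends on its probes, so levels were compared between arrays and not between genes. Arrays had median signals of 5.21 to 5.30, and the median difference over all 41770 clusters was -0.03. In whole seedlings fewer cells of a type and less RNA per cell cannot be told apart. Shoot and root markers were both measured. The mean signal of 3 of 8 listed shoot markers was 9.19 to 9.29 in OxAbp57 and 8.86 to 9.10 in control, and that of 3 of 7 root markers was 7.81 to 8.08 in OxAbp57 and 7.37 to 7.73 in control. The single genes were uneven. Differences were 0.68 (*RCA*), 0.21 (*CAB1R*) and -0.05 (*CAB2R*) for shoot, and 0.65 (*TIP2-1*), 0.62 (*PIP2-3*) and 0.03 (*PHT1-8*) for root. None of 13 listed epidermal and cuticle markers was measured, so the epidermal share of the RNA was not checked.

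No homeobox gene of the 31 passed the test. At a p under 0.05 in limma, adjusted over all clusters by the Benjamini-Hochberg method, 0 members were called, beside 0.0144% of all clusters, and the lowest adjusted p was 0.667. The unmoderated test that the methods name also called 0 at an adjusted p, beside 0% of all clusters. At the thresholds of the methods, fold over 2 and unadjusted p under 0.05, the unmoderated test called 0 members, beside 0.309% of all clusters. At these thresholds limma called 0 members as well, beside 0.508% of all clusters. At an unadjusted p under 0.05 alone, 2 members were higher in OxAbp57 (HOX20 and HOS66) and 3 were lower (HOS3, ROC4 and HOS16), beside 3.27% of all clusters higher and 3.62% lower. That is 16.1% of the members, beside 6.88% of all clusters and 8.54% of the 14662 genes taken with 1 cluster each. In the unmoderated test 1 of the 31 members had such a p, HOX32, beside 6.41% of all clusters, so the share of members depended on the test. The differences ran from -0.86 to 0.74 with a median of -0.048, 14 above 0 and 17 below, and the median turned to 0.011 with cyclic loess and to 0.025 without control replicate 2. In 21 of the 31 genes the standard deviation within genotypes was larger than the difference between them.

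The size of change that these arrays leave possible is given by the intervals. For 25 of the 31 genes the 95% interval of the difference lay within a fold of 2 in either direction. The exceptions were HOX14, HOX20, HOX22, HOX33, HOS3 and HOS16. Over all clusters the interval lay within a fold of 2 in 91.4%, and over the 14662 genes taken with 1 cluster each in 87.9%.

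**Figure D1:**
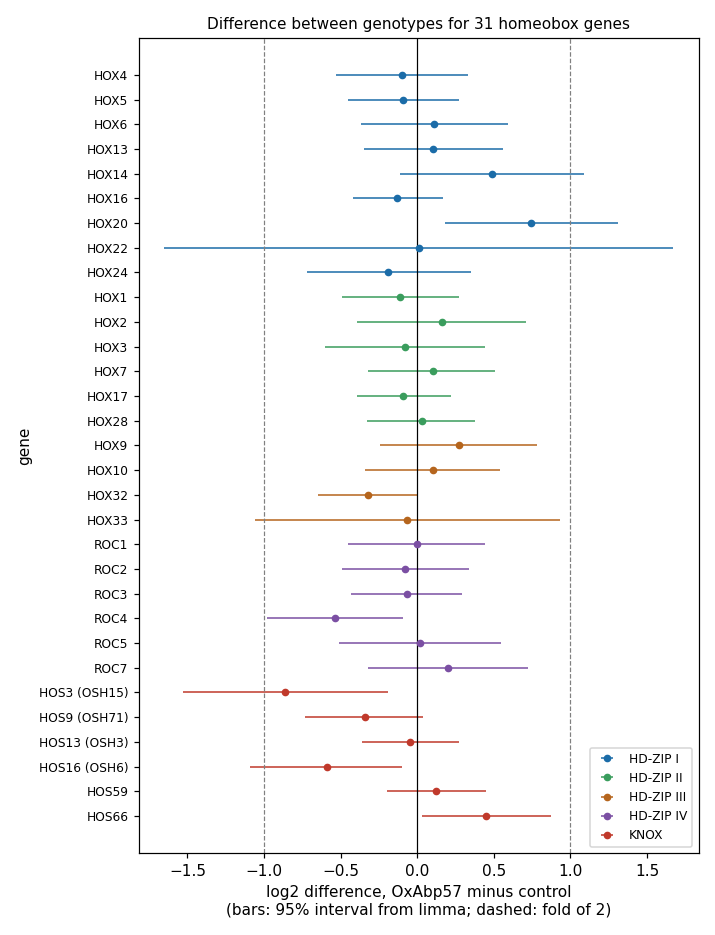
Difference between genotypes for each of the 31 homeobox genes (log2, OxAbp57 minus control; points are fitted differences, bars 95% intervals from limma, dashed lines a fold of 2, colours the classes). Points lie between -0.86 (HOS3) and 0.74 (HOX20), and 5 of the intervals leave out 0, none of them after adjustment.

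For 5 members the ranges of the genotypes did not overlap. OxAbp57 was above control for HOX20 and HOS66, beside 5.51% of all clusters, and below it for HOX16, HOX32 and ROC4, beside 7.53% of all clusters. Together these are 16.1% of the members, beside 14.2% of the 14662 genes taken with 1 cluster each.

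The largest difference among the members was in a KNOX gene. HOS3 is *OSH15*, a class I KNOX gene of the shoot meristem whose loss shortens rice internodes. Its cluster, 16525289, had signals of 4.50, 4.36 and 4.30 in OxAbp57 replicates 1, 2 and 3, against 5.64, 5.61 and 4.50 in control replicates 1, 2 and 3. Control replicates 1 and 2 were high, and control replicate 3 lay with the OxAbp57 arrays. The difference was -0.86 (standard error 0.29, adjusted p = 0.668 from limma), and standard errors stand in brackets from here on. Without control replicate 3 it was -1.23 (0.15, adjusted p = 0.028), and HOS3 was then the only member called, beside 0.362% of all clusters in that fit. In the same fit the 10 measured markers of dividing tissue were lower in OxAbp57 too, but the array left out held the lowest signal of all 10. Their differences ran from -1.17 (*CYCB2-2*) to -0.37 (*CDKB2-1*), with a lowest adjusted p of 0.134 from limma (*MCM6*). With all 6 arrays the differences ran from -0.40 (*CYCB2-2*) to 0.05 (*CDKB2-1*), with a lowest adjusted p of 0.867 from limma (*CYCB2-1*).

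HOS16, or *OSH6*, is another class I KNOX gene. It had 5.22, 5.65 and 6.0 in OxAbp57 against 6.36, 6.29 and 6.0 in control (cluster 16384683), so that the genotypes met at the third replicate of each. The difference was -0.59 (0.22, adjusted p = 0.682), and it was -0.39 without OxAbp57 replicate 1. HOS9, or *OSH71*, had 6.54, 7.06 and 6.75 in OxAbp57 and 7.17, 7.18 and 7.02 in control, a difference of -0.34 (0.17, adjusted p = 0.741). The ranges overlapped only through OxAbp57 replicate 2, and the difference was -0.22 without OxAbp57 replicate 1. The fourth class I gene measured, HOS13 or *OSH3*, had a difference of -0.05, with all 6 signals between 4.60 and 4.85. The median of the 4 class I genes was -0.469, or -0.308 without OxAbp57 replicate 1, and their differences ran from -0.86 to -0.05, though HOS13 turned to 0.01 with cyclic loess and to 0.03 without control replicate 2.

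The class II KNOX genes had differences above 0. HOS66 had signals of 8.10, 7.77 and 7.52 in OxAbp57 and 7.44, 7.15 and 7.44 in control (cluster 16456358). The groups did not overlap, by a margin under 0.1 between OxAbp57 replicate 3 and the upper controls. The difference was 0.45 (0.18, adjusted p = 0.712), or 0.30 without OxAbp57 replicate 1. HOS59 had 7.74, 7.51 and 7.67 in OxAbp57 and 7.38, 7.58 and 7.59 in control, which overlap, and a difference of 0.12 (95% interval -0.20 to 0.45).

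**Figure D2:**
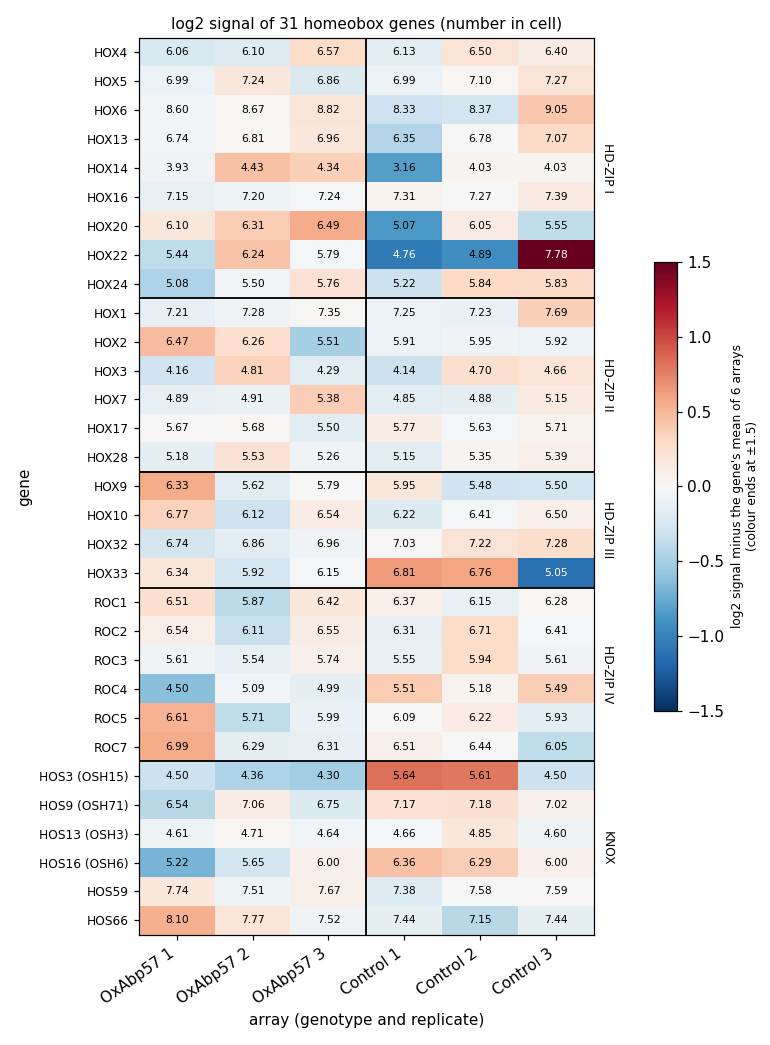
Log2 signals of the 31 homeobox genes on the 6 arrays (number in each cell; colour gives the deviation from the gene's mean of 6 arrays; rows are grouped by class, OxAbp57 columns left and control columns right of the line). HOX22 at 7.78 and HOX33 at 5.05 in control replicate 3 stand farthest from the other arrays, and HOS3 at 5.64 and 5.61 is high in control replicates 1 and 2 only.

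Among HD-ZIP I genes HOX20 had the largest difference. Its signals were 6.10, 6.31 and 6.49 in OxAbp57 against 5.07, 6.05 and 5.55 in control (cluster 16549150), so that OxAbp57 replicate 1 lay just above control replicate 2. The difference was 0.74 (0.25, adjusted p = 0.667), with a 95% interval of 0.18 to 1.31, and it was 0.50 without control replicate 1. HOX14, which takes part in panicle development, had 3.93, 4.43 and 4.34 in OxAbp57 and 3.16, 4.03 and 4.03 in control, a difference of 0.49 (0.26, adjusted p = 0.756). Control replicate 1 was the low array, and the difference was 0.20 without it. The interval of the difference, -0.11 to 1.09, reaches a fold of 2.

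Of the drought-responsive HD-ZIP I genes HOX22 had the widest range over the 6 arrays, 3.02, which was also the widest of the members. HOX22, which is induced by water deficit and ABA, had 5.44, 6.24 and 5.79 in OxAbp57 against 4.76, 4.89 and 7.78 in control (cluster 16483908). Control replicate 3 was thus the highest array and control replicates 1 and 2 the lowest. The difference of the means was 0.01 with an interval of -1.65 to 1.67, the widest among the members. Without control replicate 3 it was 1.00 (0.24, adjusted p = 0.174). The related HOX24 had 5.08, 5.50 and 5.76 in OxAbp57 and 5.22, 5.84 and 5.83 in control, and HOX6, also regulated by drought, had 8.60, 8.67 and 8.82 in OxAbp57 and 8.33, 8.37 and 9.05 in control. Control replicate 3 was the highest array for HOX6 as well, and for HOX24 its 5.83 was just under the 5.84 of control replicate 2. It was the highest array for 5 of the 9 measured HD-ZIP I genes, HOX5, HOX13 and HOX16 among them. Differences were -0.19 (HOX24) and 0.11 (HOX6).

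In control replicate 3 other genes of the drought and ABA list were high too. Of 5 measured genes of 17 listed, 4 (*RAB16C*, *RAB16D*, *LEA3* and *DIP1*) had their highest signal there, and none of the 5 passed the test. *LEA3*, a late embryogenesis abundant protein gene, had 5.90, 6.86 and 6.22 in OxAbp57 against 6.62, 6.62 and 8.26 in control. The mean signal of the list was 6.76 to 7.21 in OxAbp57, and 7.06, 7.10 and 7.88 in control replicates 1, 2 and 3. Whether a state of those seedlings, or the quality of their RNA, had a part in the HOX22 signal was not tested.

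The other HD-ZIP I genes differed little between genotypes. HOX4, whose overexpression gives dwarf plants, had -0.10 (interval -0.53 to 0.33), HOX5 had -0.09 (-0.45 to 0.27) and HOX13 had 0.10 (-0.35 to 0.56). HOX16 had 7.15, 7.20 and 7.24 in OxAbp57 and 7.31, 7.27 and 7.39 in control. These groups do not overlap, but the 6 arrays span only 0.24, the least among the members, and the difference was -0.13 (0.13, adjusted p = 0.867).

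HD-ZIP II genes had the narrowest range of differences among the 5 classes. The 6 measured genes had -0.11 to 0.16, none passed an unadjusted p of 0.05, and for each of them the interval stayed within a fold of 2. HOX1, which promotes provascular cell fate and with HOX28 affects tiller angle through the distribution of auxin, had 7.21, 7.28 and 7.35 in OxAbp57 and 7.25, 7.23 and 7.69 in control, a difference of -0.11 (-0.49 to 0.27). HOX28 had 0.03 (-0.33 to 0.38). Its neighbour HOX2, with no gene between them in the NCBI assembly ASM3414082v1, had 6.47, 6.26 and 5.51 in OxAbp57 and 5.91, 5.95 and 5.92 in control. The OxAbp57 arrays thus lay on both sides of nearly equal controls, with a difference of 0.16. HOX3, HOX7 and HOX17 had -0.08, 0.10 and -0.09.

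HD-ZIP III genes are held in check in plants by microRNA and by small zipper proteins. HOX32, which affects leaf rolling when overexpressed, had 6.74, 6.86 and 6.96 in OxAbp57 against 7.03, 7.22 and 7.28 in control (cluster 16463464). Every OxAbp57 array was below every control array, and the difference was -0.32 (0.14, adjusted p = 0.727, interval -0.65 to 0.00). HOX32 was chosen for a full account after its values were seen. HOX33, known from leaf senescence, had 6.34, 5.92 and 6.15 in OxAbp57 and 6.81, 6.76 and 5.05 in control (cluster 16434402). The OxAbp57 arrays lay between the controls, below replicates 1 and 2 and above replicate 3. Its difference was -0.07 (interval -1.06 to 0.93), or -0.65 (0.17, adjusted p = 0.218) without control replicate 3. HOX9 and HOX10, relatives of genes for leaf polarity, had 0.27 (-0.24 to 0.78) and 0.10 (-0.34 to 0.54). HOX9 had 6.33, 5.62 and 5.79 in OxAbp57 against 5.95, 5.48 and 5.50 in control, highest in OxAbp57 replicate 1, and the difference was 0.06 without that array.

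Of 30 listed names of regulators and partners of HD-ZIP III genes 10 genes were measured, 0 passed an unadjusted p of 0.05 in either direction, and the median difference was -0.031. Differences ran from -0.36 for *AGO1B*, which encodes an Argonaute protein of microRNA action, to 0.29 for the auxin response factor gene *ARF14*. The small zipper genes were not analysed here.

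Among the epidermal HD-ZIP IV genes ROC4 stood lowest. ROC4, which promotes the making of leaf wax, had 4.50, 5.09 and 4.99 in OxAbp57 against 5.51, 5.18 and 5.49 in control (cluster 16492498), with every OxAbp57 array below every control array. The difference was -0.54 (0.19, adjusted p = 0.682, interval -0.98 to -0.09), and it was -0.35 without OxAbp57 replicate 1, the lowest array. ROC5, which restrains the bulliform cells that roll the leaf, had 6.61, 5.71 and 5.99 in OxAbp57 and 6.09, 6.22 and 5.93 in control, a difference of 0.02 (-0.51 to 0.55). ROC1, expressed in the outermost cell layer of the embryo, had 0.00 (-0.45 to 0.44). ROC2, ROC3 and ROC7 had -0.08, -0.07 and 0.20. OxAbp57 replicate 1 was the highest array for ROC1, ROC5 and ROC7 but the lowest for ROC4. For leaf rolling 2 of 9 listed genes were measured, *ADL1* with -0.14 and *CFL1* with -0.21, and neither passed.

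**Figure D3:**
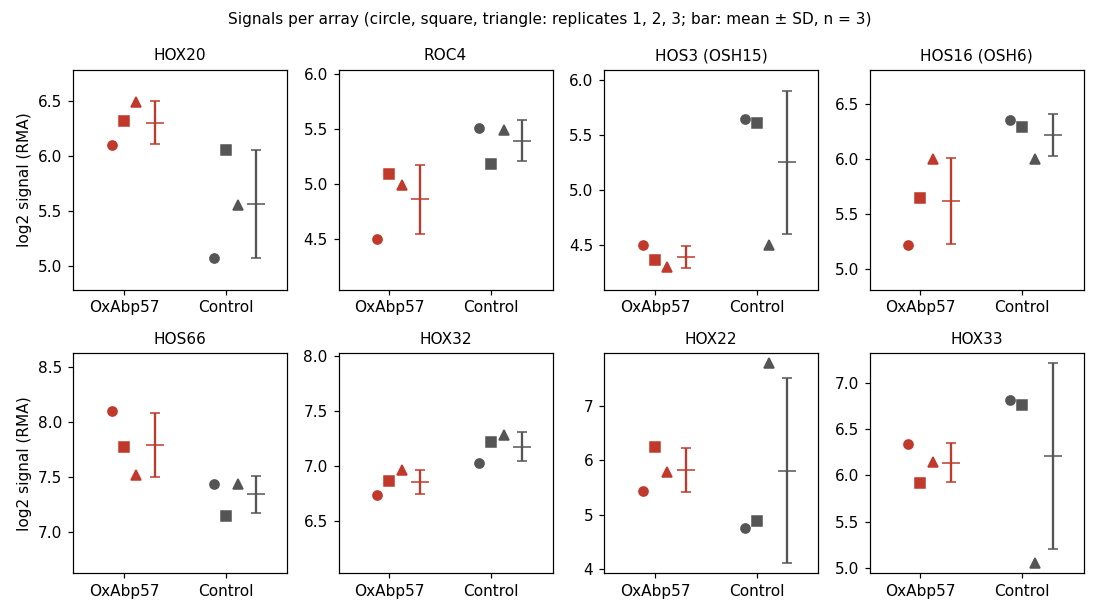
Log2 signals per array of 8 homeobox genes (OxAbp57 left, control right; circle, square and triangle are replicates 1, 2 and 3; the bar at the side is the mean ± SD, n = 3; each panel spans at least 2 units and not from 0). The genotypes lie apart for HOX20, ROC4, HOS66 and HOX32, and control replicate 3 is far from the other controls for HOS3, HOX22 and HOX33.

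Control replicate 3 departed from the other controls in 3 members by over 1 log2 unit, 9.68% of them, beside 4.6% of all clusters. It was the highest or lowest of the 6 arrays in 32.3% of members, beside 38.6% of all clusters. OxAbp57 replicate 1 was so in 51.6% of members (43.8% of all clusters), and control replicate 1 in 45.2% (28.6%). Control replicate 3 differed from the mean of control replicates 1 and 2 by 2.96 for HOX22, by -1.74 for HOX33 and by -1.12 for HOS3. In the same array the markers of dividing tissue were low: all 10 measured markers of 13 listed had their lowest signal there, and their mean was 4.88 to 5.58 in OxAbp57 and 5.95, 5.94 and 4.17 in control replicates 1, 2 and 3. The mean of 3 of 8 vascular markers was 6.66 to 7.51 in OxAbp57 and 6.34 to 6.97 in control. It was highest in OxAbp57 replicate 1 and lowest in control replicate 3. No marker was at 0, as RMA signals do not reach it. The paper lists a higher RNA integrity number for control replicate 3 than for control replicates 1 and 2. It lists the same number for OxAbp57 replicate 3 as for control replicate 3. Whether these marker differences reflect tissue or RNA quality was not tested. The part of either in the signals of HOS3 and HOX33 was not tested.

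**Figure D4:**
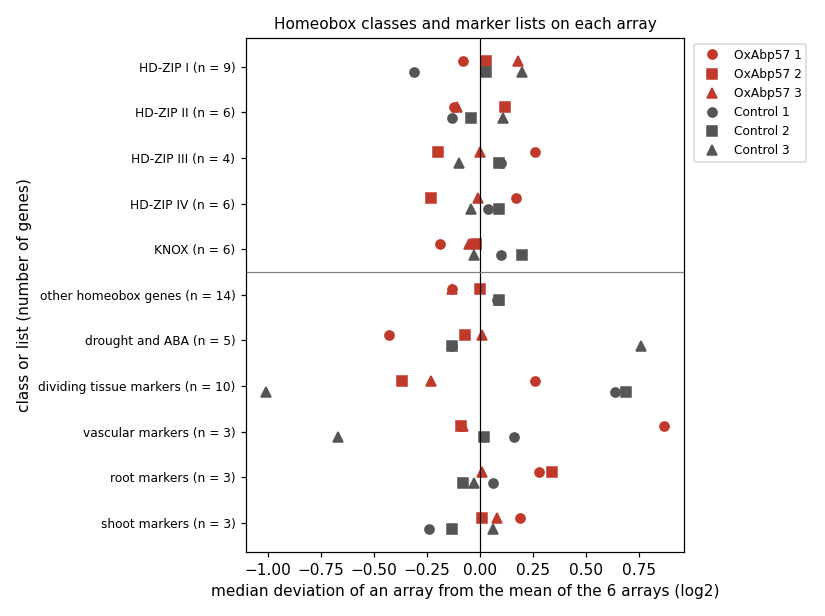
Median deviation of each array from the mean of the 6 arrays (log2) for the 5 homeobox classes and for lists of other genes (red, OxAbp57; grey, control; shape, replicate; number of genes in brackets). The classes stay between -0.31 and 0.26 on every array, while the dividing tissue markers reach -1.01 and the drought and ABA list 0.76 in control replicate 3. The vascular markers reach 0.87 in OxAbp57 replicate 1 and -0.67 in control replicate 3.

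Of 21 other homeobox genes found by name, 14 were measured. None met both the fold and the unadjusted p. The median difference was -0.165, with 2 genes above 0 and 12 below (3 and 11 with cyclic loess, 4 and 10 with array weights), beside -0.03 over all clusters and 0.007 over the 14662 genes. At an unadjusted p under 0.05, 0 were higher and 2 were lower (14.3% of the 14), beside the 3.27% of all clusters higher and 3.62% lower. *WOX6* had 3.72, 3.98 and 3.03 in OxAbp57 against 4.23, 5.03 and 3.98 in control, meeting at a signal of 3.98, with a difference of -0.84 (0.32, adjusted p = 0.704). *WOX11*, which promotes crown roots, had 5.92, 5.97 and 5.99 in OxAbp57 against 6.34, 6.22 and 6.21 in control, a difference of -0.30 (0.13, adjusted p = 0.721). The 14 were all WOX and ZHD genes. *OSH1*, a KNOX gene widely used to mark the meristem, had no paired cluster and was not analysed here. Of 16 listed meristem genes 4 were measured, with differences of -0.36 to -0.21 and none past an unadjusted p of 0.05. These were the cytokinin activation gene *LOG*, the strigolactone genes *D3* and *D14*, and the gibberellin synthesis gene *GA20OX2*. Control replicate 3 was the highest array for 3 of the 4. Without it *D3* had 0.01 in place of -0.21, *D14* -0.19 in place of -0.36 and *GA20OX2* -0.10 in place of -0.21. The remaining gene, *LOG*, had -0.26 in place of -0.23.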

How the data were processed

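Per the labels and the paper's methods, the log2 signals of 41770 transcript clusters that the authors deposited had been made by RMA, run in Affymetrix Expression Console on the raw array files. The genome build behind the clusters, the software versions and detection calls are not given in the sources used here. Clusters were joined to genes through the platform table (15299 with 1 gene, 436 with several, 26035 with none). Probe sequences were not used, so cross-hybridisation between related homeobox genes was not checked.

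The genotypes were compared with limma 3.58.1 in R 4.3.3 (lmFit, eBayes) over all 41770 clusters, without filter, block or covariate, with Benjamini-Hochberg adjustment. The fit was tested on simulated data with independent noise, for each cluster of the same spread on every array. Departures of a whole array were not simulated, so how the fit behaves with them was not checked. Members, lists and their grouping were chosen with earlier results of these data known. Every member was named by class. Signals of all arrays are given for members past an unadjusted p of 0.05, the 4 largest differences each way, the 3 highest means and the 3 largest spreads, and for others chosen after their values were seen. From the list of other homeobox genes 4 haemoglobin genes that share HB names were removed. Figures were drawn with matplotlib 3.10.9.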

Additional observations from a re-analysis of the deposited data

How the results depend on the processing

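The precision is limited by 3 arrays per genotype. The count of members called at an adjusted p under 0.05 was 0 in the 9 alternatives that keep all arrays, and 0 to 1 without 1 array, HOS3 being called without control replicate 3. At fold over 2 and an unadjusted p under 0.05 the count was 0, but 1 with array weights (HOS3 at -1.10, beside 0.685% of all clusters). It was 0 to 1 without 1 array, beside 0.378% to 1% of all clusters. Members with the genotypes apart numbered 5 of 31, beside 14.2% of the 14662 genes taken with 1 cluster each. The count was 6 with quantile normalization repeated, beside 12.8% of all clusters. Without control replicate 3 it was 12, where 30.5% of all clusters were apart. Without 1 of the other arrays it was 6 to 9, beside 19.6% to 25.2% of all clusters. Members at an unadjusted p under 0.05 numbered 5 (beside 6.88% of all clusters), but 1 by the methods' one-way ANOVA with plain or biweight folds (6.41%), and 1 to 6 without 1 array (4.45% to 11.8%). They were 6 with the replicate block (8.39%), quantile normalization repeated (6.69%), cyclic loess (6.60%) and array weights (10.7%). The median difference of the members was -0.048, -0.048 to 0.011 in the alternatives that keep all arrays and -0.072 to 0.025 without 1 array. Deviations of arrays of the same number had correlations of 0.345 (number 1), -0.11 (2) and 0.206 (3), beside -0.367 to 0.256 for different numbers. These few values cannot settle whether the numbers mark pairs. The labels do not say so, and the numbers were not read as pairs in the main fit. The 5 members at an unadjusted p under 0.05 kept their direction in all 75 comparisons and that p in 48. Over all members the sign changed in 38 of 465 comparisons, in 16 members whose differences were at most 0.20. Biweight folds turned HOX1 to 0.04, HOX28 to -0.11, ROC1 to 0.19, ROC2 to 0.12, ROC3 to 0.04, ROC5 to -0.04 and ROC7 to -0.17. They also moved HOX22 to 0.99, HOX33 to -0.64, HOX3 to -0.42 and HOS3 to -1.25, with the same direction. Array weights turned HOX3 to 0.04 and ROC5 to -0.11, and cyclic loess turned ROC1 to 0.02 and HOS13 to 0.01. Without 1 array the difference ranged from -0.02 to 0.34 for HOX6, -0.09 to 0.27 for HOX13, -0.52 to 1.00 for HOX22, -0.19 to 0.04 for HOX1, -0.04 to 0.44 for HOX2, -0.27 to 0.05 for HOX3, -0.06 to 0.19 for HOX7 and -0.08 to 0.10 for HOX28. It ranged from -0.05 to 0.28 for HOX10, -0.65 to 0.24 for HOX33, -0.13 to 0.20 for ROC1, -0.16 to 0.07 for ROC2, -0.14 to 0.05 for ROC3, -0.23 to 0.22 for ROC5, -0.03 to 0.32 for ROC7 and -0.10 to 0.03 for HOS13. The cause was not tested. A mean over the clusters of a gene could not be tried, since each member had 1.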
